A study of Xenopus laevis with 8 samples.

Results

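Oligodendrocytes wrap axons of the central nervous system in myelin, and 8 genes of this lineage were followed in the brains of Xenopus laevis tadpoles. They are olig2 and myrf, which encode transcription factors of the lineage, mbp and pmp22, which encode proteins of compact myelin, mag, an adhesion molecule that faces the axon, and cnp, ugt8 and gjb1, which encode 2 enzymes and a channel of myelinating cells. Members were the rows of the count table whose symbol, without its L or S ending, is one of these names. The species is allotetraploid, so most genes have an L and an S homeologue that were counted separately, and the 8 genes gave 15 rows of 41881. Of these, all but gjb1, which had an L row, had both copies. All 15 rows passed the filter on low counts, as did 25171 rows of the whole table.

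Whole brains of stage NF47 tadpoles were compared between neurod2 CRISPants and controls, with 4 pools in each group and 4 brains in each pool. CRISPants were injected as eggs with Cas9 loaded with an sgRNA against both homeologues of neurod2, and controls were siblings given only Cas9, so any effect of carrying a guide cannot be told apart from that of editing neurod2. Control pools are numbered 1, 2, 4 and 5 and CRISPant pools 3, 4, 7 and 9, and values of single pools are given in this order. CRISPants are F0 animals, in whose brains only some of the cells carry the edit. Since 1 sibship gave all animals, p-values reflect how far pools of siblings vary.

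In development, Olig2 is a basic helix-loop-helix factor that specifies oligodendrocyte precursors and motor neurons, and Myrf acts later, as the factor that mice need to switch on myelin genes such as Mbp and Mag. Mbp joins the cytoplasmic faces of the myelin membrane, and Pmp22 is a membrane protein of the myelin of Schwann cells, the myelinating glia of peripheral nerve. Some members are not made by myelinating cells alone. In mammals, PMP22 is also made in epithelia and fibroblasts, and the MBP locus has longer transcripts that neurons and immune cells use, which counts per gene cannot separate.

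Total counts ranged from 20985937 to 25937707 in control pools and from 18945762 to 25509904 in CRISPant pools. The targeted genes were at 32.9 to 38.6 CPM (counts scaled to library size, normalised by TMM) for neurod2.L in control pools and at 19.0 to 31.1 CPM in CRISPant pools, and at 40.3 to 52.2 and 26.7 to 45.7 CPM for neurod2.S, so neurod2.L did not overlap between the groups and neurod2.S did. Neuron markers summed to 4971 to 5419 CPM in control pools and 5094 to 5772 CPM in CRISPant pools, and skeletal muscle markers to 18.4 to 23.4 and 18.1 to 21.5 CPM. Of the tested rows, 3 of 20 neuron markers rose and 6 fell, and 2 of 13 muscle markers rose and 3 fell. These shares, 45% and 38.5%, stand against 42.4% of all genes tested. The neuron sum covers rows that went both ways. Its highest row, tubb3.L, rose from a mean of 614 CPM in control pools to 771 CPM in CRISPant pools, while syt1.S fell from 338 to 284 CPM. Together the 15 member rows took from 0.0330% to 0.0370% of the counts of a control pool and from 0.0338% to 0.0355% of those of a CRISPant pool. No span of a member overlapped another annotated gene in RefSeq (v10.1 assembly). Lengths of transcripts were not used here, so levels are compared between pools for a gene and not between genes.

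Myelin and lineage genes moved in both directions in CRISPant brains. Both copies of myrf fell, as did mbp.S, while mag.L and cnp.L rose and olig2 did not pass the test in either copy. A gene rose or fell where edgeR's quasi-likelihood F-test gave an adjusted p under 0.05 (Benjamini-Hochberg, over all 25171 genes tested). This gave 3 members lower, 2 higher and 10 that did not pass. Over all genes tested 42.4% passed, 20.8% lower and 21.7% higher, so the share of members that passed, 33.3%, was not above that of the whole table. The median log2 fold change was 0.07 over the members and -0.0022 over all genes. In bulk samples such as these, fewer cells of a type and less RNA per cell cannot be told apart.

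**Figure D1:**
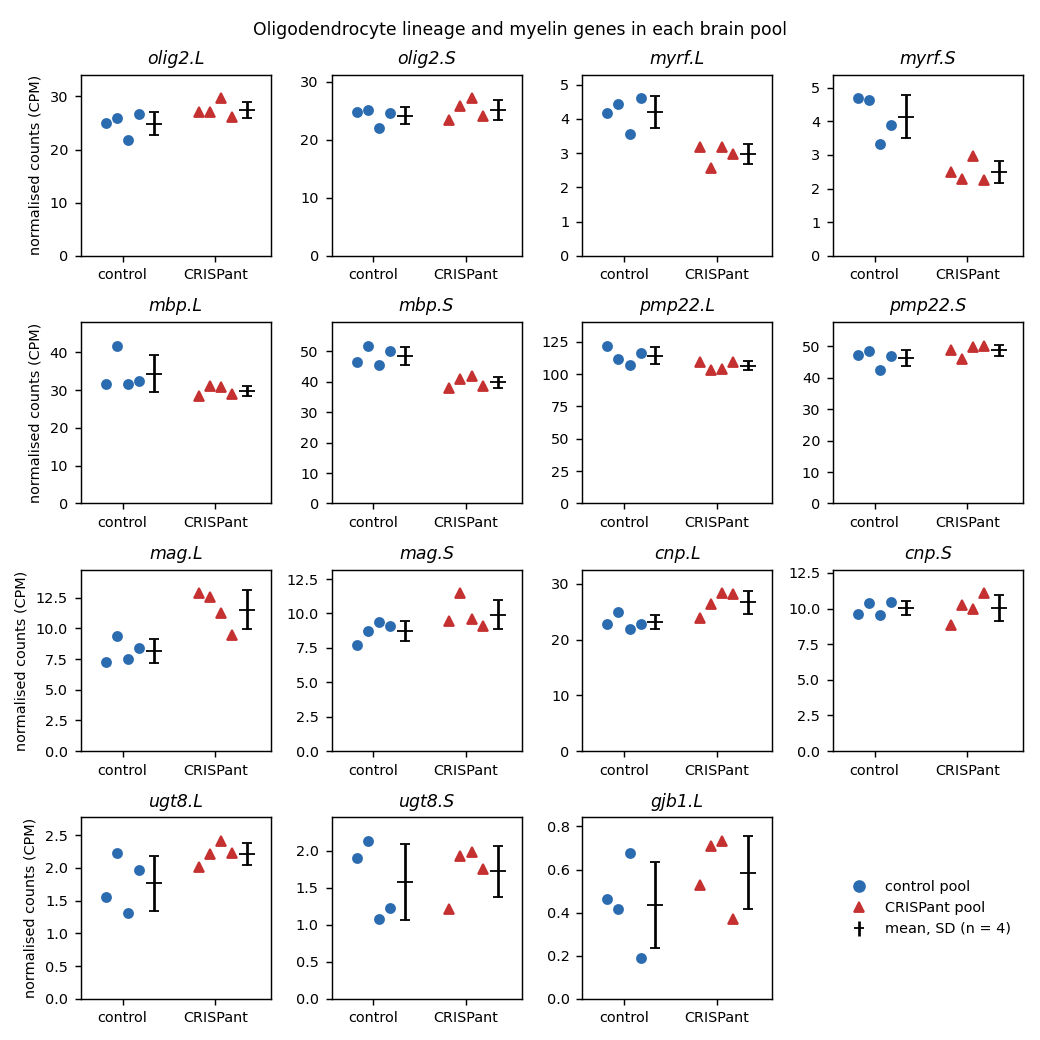
Normalised counts (CPM, vertical axis from 0) of each of the 15 member rows in the 4 control pools (blue circles) and 4 CRISPant pools (red triangles), with the mean and SD of each group in black. CRISPant pools lie under every control pool for myrf.L, myrf.S, mbp.L and mbp.S and over every control pool for mag.L.

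Of the lineage factors, myrf fell in both copies. myrf.L, on chromosome 4L from 17153028 to 17246842 in v10.1 coordinates, was at 4.18, 4.45, 3.55 and 4.61 CPM in control pools and at 3.17, 2.57, 3.19 and 2.96 CPM in CRISPant pools. Every CRISPant pool was under every control pool. The fitted level fell by 29.3%, a log2 fold change of -0.50 (standard error 0.15, 95% interval -0.82 to -0.19, edgeR adjusted p = 0.011).

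myrf.S, on chromosome 4S from 6644728 to 6728891, fell further. It was at 4.69, 4.64, 3.33 and 3.90 CPM in control pools and at 2.49, 2.29, 2.97 and 2.27 CPM in CRISPant pools, again with no overlap. Its log2 fold change was -0.73 (standard error 0.17, 95% interval -1.07 to -0.38, edgeR adjusted p = 0.0014), so that it fell by 39.5%. Control pool 4 was the lowest control for both copies and still lay above all CRISPant pools. Both calls held with every pool left out in turn, with an adjusted p of at most 0.038 for myrf.L and 0.0077 for myrf.S from edgeR.

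olig2, the earlier factor, showed no such fall. olig2.L, on chromosome 2L from 14360584 to 14365343, was at 25.1, 26.0, 21.7 and 26.6 CPM in control pools and at 27.0, 27.0, 29.7 and 26.1 CPM in CRISPant pools. The groups overlapped through CRISPant pool 9, which was under control pool 5. Its log2 fold change of 0.14 had a 95% interval of -0.01 to 0.30 (edgeR adjusted p = 0.135). olig2.S, on chromosome 2S from 19744870 to 19749041, was at 24.1 ± 1.41 CPM over control pools and 25.1 ± 1.69 CPM over CRISPant pools (mean ± SD, n = 4), with a log2 fold change of 0.06 and an interval of -0.10 to 0.21. The lower bounds of both intervals lie above the fitted change of either copy of myrf.

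Among the proteins of compact myelin, mbp fell by a small amount. mbp.S, on chromosome 6S from 85210864 to 85303846, was at 46.4, 51.8, 45.4 and 50.1 CPM in control pools and at 37.9, 40.8, 41.9 and 38.6 CPM in CRISPant pools. The lowest control pool was above the highest CRISPant pool. The log2 fold change was -0.28 (standard error 0.06, 95% interval -0.41 to -0.15, edgeR adjusted p = 0.0011). mbp.S thus fell by 17.7%, and the call held with each pool left out.

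mbp.L, on chromosome 6L from 104552680 to 104667751, lay close to the threshold. It was at 31.6, 41.7, 31.6 and 32.5 CPM in control pools and at 28.4, 31.1, 30.8 and 29.1 CPM in CRISPant pools. The groups did not overlap, but CRISPant pool 4 was within 1 CPM of the lowest control pool, and control pool 2 stood apart from the other controls. The log2 fold change was -0.20 (standard error 0.08, 95% interval -0.37 to -0.03) and did not pass (edgeR adjusted p = 0.0563). Without control replicate 2 it was -0.10 (edgeR adjusted p = 0.31), while without control replicate 1 or 4 mbp.L passed at -0.24 (adjusted p = 0.0401 and 0.0363 from edgeR).

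pmp22, which encodes a membrane protein of peripheral myelin, was measured precisely and did not pass the test in either copy. pmp22.L, on chromosome 9_10L from 51982422 to 51994958, was at 122, 112, 107 and 117 CPM in control pools and at 109, 103, 104 and 110 CPM in CRISPant pools, with a log2 fold change of -0.10 and a 95% interval of -0.21 to 0.01 (edgeR adjusted p = 0.139). pmp22.S, on chromosome 9_10S from 44591677 to 44604399, was at 46.3 ± 2.59 CPM over control pools and 48.7 ± 1.84 CPM over CRISPant pools (mean ± SD, n = 4), with a log2 fold change of 0.07 and an interval of -0.05 to 0.20. The groups overlapped for both copies.

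**Figure D2:**
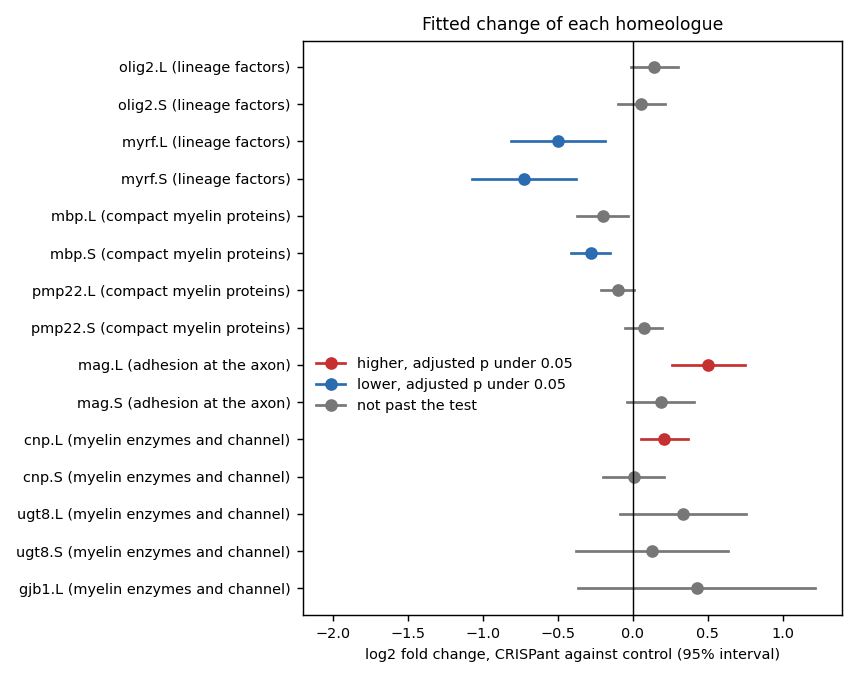
Fitted log2 fold change of CRISPant against control brains (horizontal axis) for each of the 15 member rows, grouped by role, with its 95% interval as a line. Blue marks rows that fell and red marks rows that rose at an adjusted p under 0.05 from edgeR. The points run from -0.73 for myrf.S to 0.51 for mag.L, and the widest intervals belong to gjb1.L, ugt8.S and ugt8.L.

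mag, the sialic acid-binding adhesion molecule on the innermost turn of myelin, rose in its L copy. mag.L, on chromosome 7L from 131151696 to 131222731, was at 7.28, 9.41, 7.47 and 8.41 CPM in control pools and at 12.9, 12.6, 11.3 and 9.44 CPM in CRISPant pools. CRISPant pool 9 was only just above control pool 2, and the other CRISPant pools were well clear of the controls. The log2 fold change was 0.51 (standard error 0.12, 95% interval 0.26 to 0.75, edgeR adjusted p = 0.0015), a rise of 41.9%, and the call held with each pool left out.

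mag.S, on chromosome 7S from 107684752 to 107739812, was at 7.71, 8.72, 9.36 and 9.12 CPM in control pools and at 9.42, 11.5, 9.60 and 9.12 CPM in CRISPant pools. The groups overlapped at CRISPant pool 9. Its log2 fold change of 0.19 had a 95% interval of -0.04 to 0.41 and did not pass (edgeR adjusted p = 0.171).

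The enzymes and the channel had positive fitted changes in all 5 rows, and 1 of them passed. cnp.L, which encodes a cyclic nucleotide phosphodiesterase of myelin cytoplasm and lies on chromosome 9_10L from 853471 to 859853, was at 22.9, 24.9, 22.0 and 22.8 CPM in control pools and at 23.9, 26.4, 28.3 and 28.2 CPM in CRISPant pools. CRISPant pool 3 was under control pool 2, so the groups overlapped. The log2 fold change was 0.21 (standard error 0.08, 95% interval 0.05 to 0.37, edgeR adjusted p = 0.0303). The call of cnp.L was lost without control replicate 1, 4 or 5 and without CRISPant replicate 7 or 9 (adjusted p from 0.0665 to 0.086 from edgeR).

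cnp.S, on chromosome 9_10S from 791337 to 797323, was at 10.01 ± 0.490 CPM over control pools and 10.03 ± 0.920 CPM over CRISPant pools (mean ± SD, n = 4). This was the smallest fitted change of any member, with a 95% interval of -0.20 to 0.21 on the log2 scale. ugt8, the enzyme that makes galactosylceramide, the main glycolipid of myelin, had few reads. ugt8.L, on chromosome 1L from 73589867 to 73619475, was at 1.55, 2.23, 1.31 and 1.97 CPM in control pools and at 2.01, 2.21, 2.41 and 2.22 CPM in CRISPant pools, with a log2 fold change of 0.34 and an interval of -0.09 to 0.76.

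Control pool 2 was above CRISPant pools 3, 4 and 9 for ugt8.L, so those groups overlapped. ugt8.S, on chromosome 1S from 58076579 to 58113779, had a log2 fold change of 0.13 and a wider interval, of -0.38 to 0.64. gjb1.L, the gene of a connexin that couples layers of myelin in mammals, lies on chromosome 8L from 34999996 to 35010603. It had 12, 9, 15 and 4 reads in control pools and 10, 18, 17 and 8 reads in CRISPant pools, the fewest of any member. Its log2 fold change of 0.43 had an interval of -0.36 to 1.22, again too wide to tell a fall from a rise. Adjusted p from edgeR was 0.193, 0.704 and 0.389 for ugt8.L, ugt8.S and gjb1.L.

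Calls went both ways among the myelin genes, and those among the lineage factors were the 2 copies of myrf. Of the 4 rows of lineage factors, 2 fell, both of myrf, and 2 did not pass, both of olig2. Among the 11 myelin rows, 1 was lower, 2 were higher and 8 were not called. Calls thus covered 50% of lineage factor rows and 27.3% of myelin rows. For all genes tested this share was 42.4%, with 20.8% lower and 21.7% higher. Median log2 fold changes were -0.22 over the lineage factor rows and 0.13 over the myelin rows. The first of these medians describes neither gene, since both myrf rows were negative and both olig2 rows positive. Compact myelin rows had negative fitted changes in 3 of 4, whereas rows of mag, cnp, ugt8 and gjb1 had positive ones in 7 of 7. The L and S rows of a gene were read in the same pools and are not independent. Over all genes tested, 12512 of 25171 fitted changes were positive. Of these myelin rows only mbp.S, mag.L and cnp.L passed, and cnp.S and ugt8.S changed sign with single pools left out. The groups did not overlap in 5 of the 15 rows, 4 with CRISPant pools below and 1 above, against 37.8% of all genes tested, 18.5% below and 19.4% above. Whether lineage factors and myelin genes differ in their change was not tested.

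With the reads of both homeologues summed, 3 of the 8 genes passed, against 43.6% of 17826 genes fitted in this way (21.4% lower and 22.2% higher). myrf fell from 8.34 ± 1.003 CPM to 5.47 ± 0.546 CPM (mean ± SD, n = 4), a log2 fold change of -0.61 (95% interval -0.87 to -0.35, edgeR adjusted p = 6.5e-04). mbp fell from 82.8 ± 7.57 to 69.6 ± 3.25 CPM, with -0.25 (interval -0.38 to -0.12, adjusted p = 0.0036). mag rose from 16.9 ± 1.35 to 21.4 ± 2.35 CPM, with 0.35 (interval 0.16 to 0.54, adjusted p = 0.0043).

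For these 3 genes, which were picked by that test, the groups did not overlap, so this is no separate support. The other genes had summed changes of -0.05 for pmp22, 0.10 for olig2, 0.15 for cnp, 0.24 for ugt8 and 0.42 for gjb1, and none of them passed (adjusted p from 0.0917 to 0.429 from edgeR). With the 8 genes placed in order of this change, from myrf to gjb1, the 95% intervals of all neighbours overlapped. That the interval of mag lay wholly above 0 and that of mbp wholly below it follows from their calls by the same test. The interval of olig2, from -0.03 to 0.24, did not meet that of myrf.

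The change differed between homeologues for 1 of the genes. The ratio of L to S was fitted with limma in 7427 pairs, of which 24.0% differed between the groups at an adjusted p under 0.05, and 1 of the 7 member pairs did. For cnp the log2 ratio rose from a mean of 1.20 to 1.41, a difference of 0.21 (standard error 0.06, 95% interval 0.06 to 0.35, adjusted p = 0.0458 from limma). Leaving out any of the 8 pools ended that call (adjusted p from 0.0647 to 0.103 from limma). For mag the difference was 0.32 (95% interval 0.06 to 0.58) and for pmp22 it was -0.17 (95% interval -0.31 to -0.03), and neither passed (adjusted p = 0.0776 and 0.0724 from limma). For olig2, myrf, mbp and ugt8 the differences ran from 0.09 to 0.22, and none passed.

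**Figure D3:**
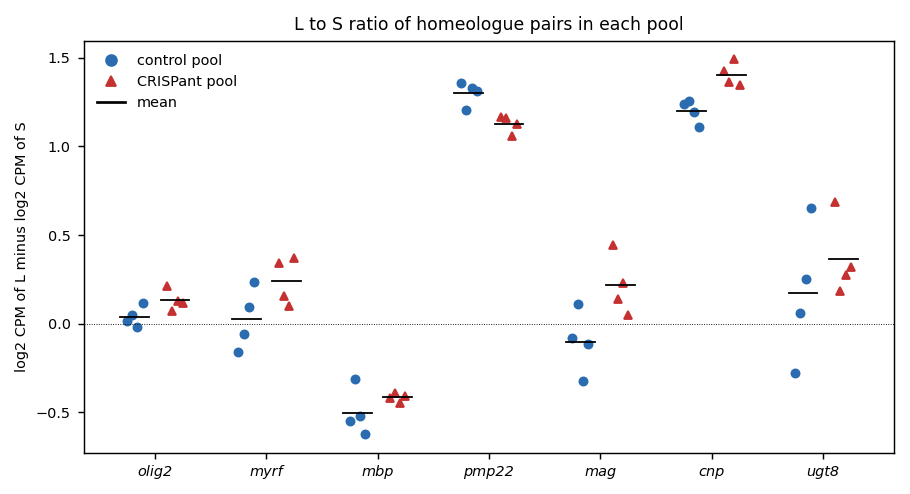
Log2 CPM of the L copy minus log2 CPM of the S copy (vertical axis) for the 7 member pairs in each control pool (blue circles) and CRISPant pool (red triangles), with group means as black lines. The mean for cnp moves from 1.20 in control pools to 1.41 in CRISPant pools.

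Beside the members, other genes of the lineage were counted from lists of general knowledge. Of 35 rows of lineage factors, 9 fell and 5 rose, and 21 did not pass. The median log2 fold change was 0.05. These counts are read against the 20.8% of all genes that fell and the 21.7% that rose. Those with the smallest p were sox9.S (-0.45) and sox9.L (-0.36), which fell, and zeb2.S (0.45) and chd7.S (0.29), which rose. Sox9 acts in glial specification, and Zeb2 and Chd7 promote oligodendrocyte differentiation in mice. The other genes of this list that are named here were chosen after their values were seen. Among them, chd7.L had 0.05 and did not pass (edgeR adjusted p = 0.472).

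sox10, the partner of Myrf at myelin genes in mice, fell in both copies with a log2 fold change of -0.35 each (adjusted p = 0.0331 for sox10.L and 0.0144 for sox10.S from edgeR). Without CRISPant replicate 3 or control replicate 5 neither copy passed (adjusted p = 0.125 and 0.1 for sox10.L, 0.0538 and 0.0531 for sox10.S, all from edgeR). sox10.L was also lost without control replicate 1, control replicate 2 or CRISPant replicate 9 (adjusted p = 0.0738, 0.0601 and 0.0835 from edgeR). Its relative sox8 fell with -0.41 and -0.48 for sox8.L and sox8.S, and every CRISPant pool was under every control pool for both copies.

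nkx2-2.L, a factor of early oligodendrocyte development, fell from 39.7 to 30.5 CPM (log2 fold change -0.38, edgeR adjusted p = 7.9e-04), and nkx2-2.S had -0.14 and did not pass (adjusted p = 0.355). tcf7l2, a Wnt effector that also marks newly formed oligodendrocytes in mice, fell in both copies, with -0.30 for tcf7l2.L and -0.31 for tcf7l2.S. Which brain cells gave the reads of the genes in this list was not tested. olig1, the relative of olig2, had 0.06 for olig1.L, which did not pass (adjusted p = 0.615), while olig1.S rose from a low level, 0.903 to 1.82 CPM, with 1.03 (edgeR adjusted p = 0.0037). The remaining rows of the list that rose were zeb2.L, with 0.26 (edgeR adjusted p = 0.0052), and tcf4.S, with 0.16 (edgeR adjusted p = 0.0467), and the call of tcf4.S was lost under 10 of 15 alternatives.

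Markers of oligodendrocyte precursors and newly formed oligodendrocytes fell in 6 of 16 rows and rose in 2, with a median log2 fold change of -0.14. Over all genes 20.8% fell and 21.7% rose. tnr.L, an extracellular matrix gene, fell with -0.54, cspg4.L, which encodes the NG2 proteoglycan of precursors, with -1.20 from 3.25 CPM, and pdgfra.L, the growth factor receptor of precursors, with -0.47, while ptprz1.S rose with 0.22. Of the other copies, added after their values were seen, tnr.S fell with -0.15 (edgeR adjusted p = 0.0496). cspg4.S (-0.68), pdgfra.S (-0.13) and ptprz1.L (0.08) did not pass. The calls of tnr.L, cspg4.L and pdgfra.L held under all 15 alternatives, summed homeologues among them. In mammals, cspg4 also marks pericytes and pdgfra also marks fibroblasts. Which cells gave the reads of this list was not tested, for the rows that rose as for those that fell. gpr17.L, which marks cells about to differentiate and was chosen after its values were seen, fell with -0.41 (edgeR adjusted p = 0.0295). That call was lost without control replicate 1, control replicate 5 or CRISPant replicate 3 (adjusted p = 0.0881, 0.15 and 0.0836 from edgeR). enpp6.L, of the same list and also chosen after its values were seen, had -0.18 and did not pass (edgeR adjusted p = 0.311). The other row of this list that rose was vcan.L, the gene of the proteoglycan versican, with 0.30 (edgeR adjusted p = 0.0064), and its call held under all 15 alternatives.

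Of 27 other rows of myelin structure and mature oligodendrocytes, 2 fell and 2 rose, or 14.8% against 42.4% of all genes. The median log2 fold change was -0.01, and 23 rows did not pass. Some of these rows had few reads or differed widely between pools, which limits what could pass. Chosen after their values were seen, aspa.L (mean 0.377 CPM in control pools) had a standard error of 0.41 and tf.L one of 0.73. The copies of jam3, an adhesion molecule gene, went apart, with jam3.L at -0.47 and jam3.S at 0.25, and summed they had -0.08, which did not pass (edgeR adjusted p = 0.26). sirt2.S, a deacetylase gene, rose with 0.21. enpp2.S, which encodes the secreted enzyme autotaxin, fell with -0.44, a call that was lost without any single pool other than control replicate 2 or CRISPant replicate 7 (adjusted p from 0.0519 to 0.137 from edgeR). Summed with the other copy it had -0.03 and did not pass (edgeR adjusted p = 0.845).

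Enzymes of myelin lipids other than ugt8 rose in 2 of 14 rows and fell in none, with a median log2 fold change of 0.19. The share that passed, 14.3%, was under the 42.4% of all genes, of which 21.7% rose. Here too some rows had few reads. Chosen after its values were seen, fa2h.S had a mean of 0.502 CPM in control pools and a standard error of 0.33. galc.L, which breaks down the galactosylceramide that Ugt8 makes, rose from 13.03 to 24.5 CPM with 0.91 (standard error 0.09, edgeR adjusted p = 5.2e-08), and gltp.S, a glycolipid transfer protein gene, rose with 0.54. The call of gltp.S was lost with homeologues summed (edgeR adjusted p = 0.0673). Genes of nodes, paranodes and internodal adhesion, which neurons and glia share, fell in 11 of 24 rows, against 20.8% of all genes, and rose in none, with a median of -0.18, among them ank3.L (-0.41), cntnap2.L (-0.32), sptbn4.S (-0.38) and cadm4.S (-0.29). Of the other copies of these genes, chosen after their values were seen, ank3.S (-0.31) and cadm4.L (-0.24) fell. cntnap2.S (0.09) and sptbn4.L (-0.12) did not pass. ank3, cntnap2 and sptbn4 act on the axon side. Of 22 rows of signals and regulators of myelination, 4 fell and 1 rose, or 22.7% against 42.4% of all genes. Among them were adgrg1.L, an adhesion receptor gene, at -0.51, and rtn4, the gene of Nogo, at -0.25 for rtn4.S and -0.18 for rtn4.L. qki.L, an RNA-binding protein gene of myelinating glia, was at 0.36. The other copies, qki.S and adgrg1.S, were chosen after their values were seen. qki.S fell with -0.16, and adgrg1.S, at -0.04, did not pass (edgeR adjusted p = 0.836). rtn4.L did not pass without control replicate 2 (edgeR adjusted p = 0.0618).

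**Figure D4:**
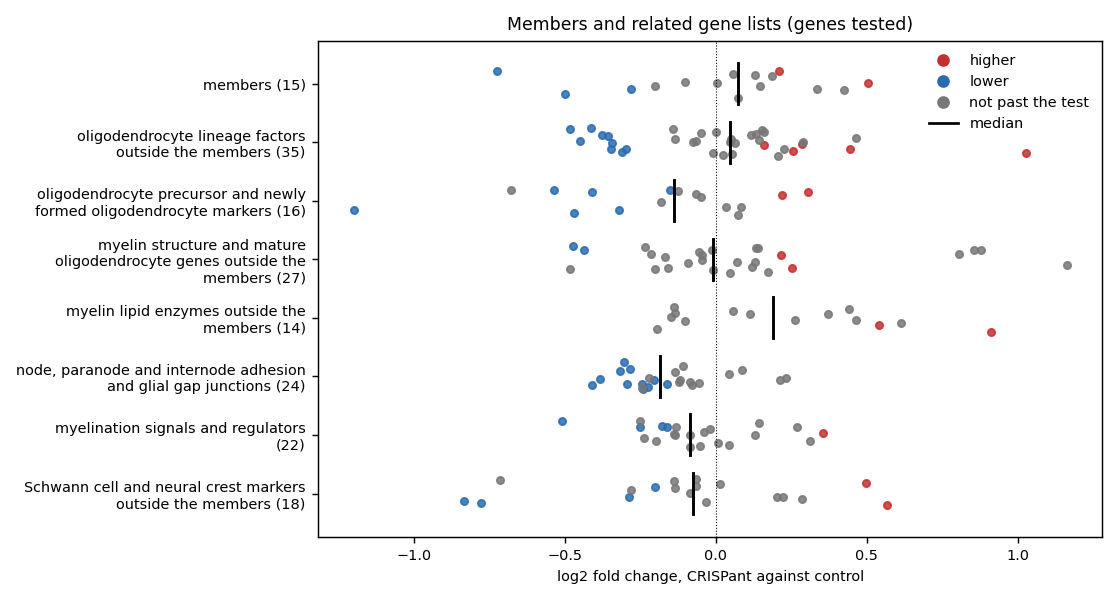
Log2 fold change of CRISPant against control brains (horizontal axis) for the tested rows of the members and of 7 related lists, with the number of rows in brackets and the median as a black bar. Blue points fell and red points rose at an adjusted p under 0.05 from edgeR. The medians run from -0.18 for nodes and paranodes to 0.19 for lipid enzymes, and the members, at 0.07, lie between them.

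Since pmp22 also belongs to peripheral myelin, other Schwann cell and neural crest genes are given beside it. Of 18 tested rows, 4 fell, 2 rose and 12 did not pass, so that 33.3% passed, against 42.4% of all genes. The list summed to 475 to 547 CPM in control pools and 430 to 535 CPM in CRISPant pools. Its highest row, pmp2.S, had means of 202 CPM in control pools and 197 CPM in CRISPant pools, so the sum rests largely on a few rows. pmp2.L, a lipid-binding protein gene of Schwann cells in mammals, fell from 19.9 to 11.1 CPM, or by 0.83 on the log2 scale, and gldn.S, the gene of gliomedin, fell with -0.78, while prx.S, the gene of another peripheral myelin protein, rose with 0.57. drp2.L fell with -0.20. pmp2.L summed with the other copy had -0.09 and did not pass (edgeR adjusted p = 0.76). The other copy of prx, prx.L, rose from 5.04 to 7.12 CPM with 0.50 (edgeR adjusted p = 0.0206), a call that was lost without control replicate 4 or 5 or CRISPant replicate 7 or 9 (adjusted p from 0.0563 to 0.104 from edgeR). Levels of single genes of the list differed, with egr2.L, a factor of Schwann cell myelination, at group means of 4.52 (control) and 3.71 CPM (edgeR adjusted p = 0.174) and ncmap.L and ncmap.S at means of at most 0.057 CPM. The genes prx.L, egr2.L and ncmap were chosen after their values were seen. The part of these cells in the values of pmp22 was not tested.

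Markers of other cells passed the test in shares from 10% to 75% of their tested rows, against 42.4% of all genes. Microglia and leukocyte markers summed to 9.49 to 14.3 CPM in control pools and 6.196 to 9.34 CPM in CRISPant pools, with 3 of 6 tested rows lower (50%) and p2ry12.S at 0 in every pool. Cartilage, fibroblast and meninges markers summed to 236 to 321 CPM and 305 to 370 CPM, with 5 of 15 rows higher and 2 lower (46.7%). Radial glia and astroglia markers summed to 3155 to 3503 CPM and 3404 to 3736 CPM, with 5 of 12 rows higher and 4 lower (75%). That sum leans on its highest row, fabp7.L, with means of 975 CPM in control pools and 1312 CPM in CRISPant pools. aldh1l1.L, of the same list, fell with -1.72. Blood cell markers summed to 933 to 1436 CPM and 714 to 1964 CPM, with 1 of 10 rows, hbg2.L, higher (10%), a call lost under 8 of 15 alternatives. Of the sums in this paragraph, only the microglial ones did not overlap between the groups, and the gap was narrow (9.49 against 9.34 CPM). Sums of node and paranode genes (2658 to 2817 and 2247 to 2529 CPM) did not overlap either. Nor did those of myelination signals (1228 to 1258 and 1114 to 1161 CPM). The part of these other cells in the changes of the members was not tested.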

How the data were processed

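Total RNA from 8 pools of 4 whole brains was sequenced from stranded mRNA libraries. The authors aligned single reads of 100 bp with DRAGEN (build XENLA_10.1) and used FeatureCounts to count per gene, and the deposited values are raw counts for 41881 rows. Strand and multi-mapping settings are not given in the sources used here, so reads shared by near-identical homeologues may be split or lost. Columns were mapped to samples by library name, and no pair of replicates agreed within sampling noise.

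After filterByExpr with a minimum count of 10, counts were normalised by TMM and fitted with condition as the only term in edgeR 4.0.16 (quasi-likelihood F-test, robust) in R 4.3.3. Standard errors and 95% intervals come from the F statistic of each fold change. The ratio of L to S was fitted with limma 3.58.1 on log2 CPM with a prior count of 2. Alternatives used DESeq2 1.42.0 size factors or its Wald test, other filters, edgeR without its robust option or with the likelihood ratio test, summed homeologues, and each pool left out. Both fits were run on data simulated with a small share of changed genes. Error rates with as many changed genes as were called in these data were not measured.

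Members and lists were chosen with earlier results of these data known. Some genes, 1 member gene among them, are not reported here, and counts over the members leave it out. Every other member row is named, and of each related list up to 4 genes with the smallest p. Coordinates are from RefSeq, which matched 15 of 15 member rows.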

Additional observations from a re-analysis of the deposited data

Results flagged for a closer look

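Among 50 groups of 4 pools examined for a pool that stood far from the others, where chance gives about 5%, 1 had such a pool. mbp.L was at 41.7 CPM in control pool 2 and at 31.6 to 32.5 CPM in the other control pools, so that the gap to the nearest pool was 0.911 of the range. For mbp.S the same pool, at 51.8 CPM, was the highest control but did not stand apart in this way.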

How the results depend on the processing

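Of 224 values of members under 15 alternatives, 207 kept their direction and their side of the threshold. The calls of myrf.L, myrf.S, mbp.S and mag.L held under all alternatives. The count of members that rose was 1 with homeologues summed, where it is out of 8 genes, and 1 to 2 with single pools left out, because cnp.L was lost. The count that fell was 2 with homeologues summed and 3 to 4 with single pools left out. mbp.L also passed with no filter on low counts (adjusted p = 0.0392 from edgeR). Fitted changes that did not pass changed sign for cnp.S, from -0.043 to 0.059, and for ugt8.S, from -0.017 to 0.29, with single pools left out. With homeologues summed, pmp22.S had -0.050, jam3.S -0.077 and qki.L -0.041, since both copies are then 1 value. Among the calls lost in that fit were those of ptprz1.S, gltp.S, olig1.S and enpp2.S (edgeR adjusted p = 0.125, 0.0673, 0.174 and 0.845). Those of cnp.L, jam3.L and pmp2.L were lost as well (edgeR adjusted p = 0.0917, 0.26 and 0.76). The call of hbg2.L was lost under 8 of 15 alternatives. Of the 7 member pairs, 0 differed in the L to S ratio with any single pool left out (limma), with 2 to 4 at an unadjusted p under 0.05. No paired analysis was possible because the groups share only 1 replicate number. At 4 to 18 reads a pool, gjb1 limits what could be detected.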
